A study of Mus musculus with 10 samples.

Results

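The cyclin-dependent kinase (CDK) inhibitors and the D cyclins were examined in mouse Flk1+ cells with and without the adaptor protein gene Ldb1. The family holds 10 names, of which 9 had a row among the 21868 genes of the count table: the Cip/Kip inhibitors Cdkn1a, Cdkn1b and Cdkn1c, the Ink4 inhibitors Cdkn2a, Cdkn2b and Cdkn2c, and Ccnd1, Ccnd2 and Ccnd3. Cdkn2d is not analysed here. The names were taken by function, but the family was selected on results that already showed Cdkn1c among the genes called between genotypes. Every difference between genotypes within the family is therefore given as a description. Where an edgeR or DESeq2 call of a family gene is mentioned, nothing is read from it.

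The cells were sorted for Flk1, the receptor made from Kdr, out of embryoid bodies, the aggregates in which mouse embryonic stem (ES) cells differentiate. The groups were Ldb1+/+ cells (WT) and Ldb1-/- cells (KO), with 4 RNA-seq libraries each. Within a genotype, libraries 1 and 2 were alike to within about the sampling noise, and so were libraries 3 and 4. Each such pair was summed and counted as 1 sample, A or B, leaving 2 samples per genotype with 22674679 to 26775787 counts. Neither the embryoid body day of these libraries nor separate cultures for A and B is stated in the labels, so A and B may not be independent biological replicates. Samples A and B differed in cell type markers, as given below, and what lies behind the spread between them was not tested. The sources used here do not give the structure of the knockout allele or the number of ES cell lines. Loss of Ldb1 and any other way in which the ES cells of the 2 genotypes differ cannot be told apart.

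D cyclins bind Cdk4 and Cdk6, and the active kinases phosphorylate the retinoblastoma protein, which frees E2F factors to switch on S phase genes. Ink4 inhibitors bind Cdk4 and Cdk6 themselves and keep D cyclins off, whereas Cip/Kip inhibitors bind cyclin-CDK complexes, above all those of Cdk2. In the mouse, the product of Cdkn1c helps to hold blood stem cells in quiescence, and ES cells are known for a short G1 phase.

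Levels are counts per 1000000 after TMM scaling (CPM). Ldb1 itself was still counted, at 105 and 113 CPM (WT A, B) and 96.1 and 80.1 CPM (KO A, B), with a log2 fold change of -0.31 (SE 0.15, edgeR adjusted p = 0.41). Since it is not known which exons the knockout lacks, a count over the whole gene does not check the genotype, and KO means the libraries labelled so. Markers of the sort and of other cells differed between samples and are set beside the family here. Kdr stood at 440 and 605 CPM (WT A, B) and at 236 and 78.6 CPM (KO A, B). Of the 7 mesenchyme and muscle markers, all measured and none at 0, 6 were higher in both KO samples than in both WT samples, and their summed level was 661 and 839 CPM (WT) against 1611 and 2946 CPM (KO). The 6 blood markers summed to 88.0 and 103 CPM (WT) and to 7.08 and 4.92 CPM (KO), where Hbb-bh1 had no reads. The 5 pluripotency markers summed to 937.5 CPM in WT sample A, 275 CPM in WT sample B and 513 and 569 CPM (KO). The part of these markers in the values below was not tested, and in bulk RNA fewer cells of a type and less RNA per cell cannot be told apart.

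Cdkn1c, which encodes the Cip/Kip inhibitor p57 and is imprinted, with the maternal copy active, had the widest difference between genotypes in the family. Its level was 10.2 and 9.43 CPM (WT A, B) and 57.2 and 92.1 CPM (KO A, B). The 4 WT libraries lay between 9.16 and 10.4 CPM and the 4 KO libraries between 54.8 and 92.3 CPM. The groups were far apart, and the KO samples also differed from each other while the WT samples hardly did. The mean was 9.82 ± 0.541 CPM (WT) and 74.6 ± 24.7 CPM (KO; SD, n = 2 each), 7.60-fold higher in KO, with a log2 fold change of 2.93 (SE 0.27).

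Cdkn1b, which encodes the inhibitor p27 that restrains entry into S phase, stood at 45.5 and 53.6 CPM (WT) and 68.0 and 90.8 CPM (KO). Both KO samples lay above both WT samples, and the log2 fold change was 0.68 (SE 0.19). Cdkn1a, the p53-inducible inhibitor p21 gene, stood at 102 and 133 CPM (WT) and 112 and 194 CPM (KO). Here the groups overlapped, since KO sample A fell between the WT samples, and KO sample B alone stood apart. Its log2 fold change was 0.38 (SE 0.30), and it was -0.07 without KO sample B.

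**Figure D1:**
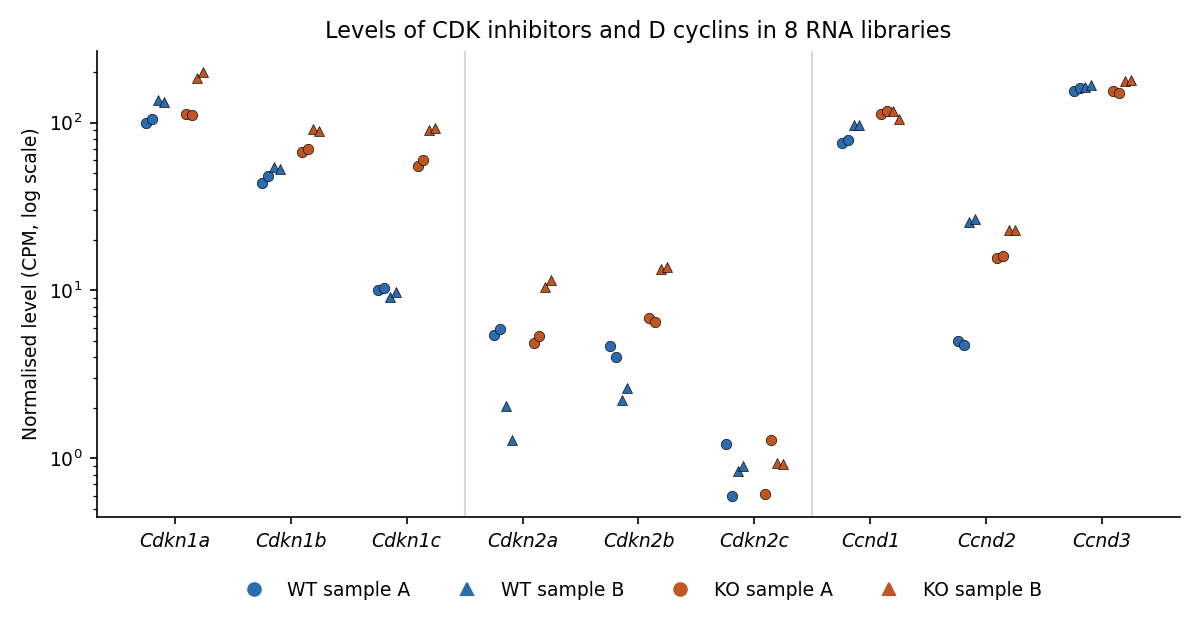
Level of each measured CDK inhibitor and D cyclin in CPM on a log axis, 1 point per RNA library, with WT in blue, KO in orange, circles for sample A (libraries 1 and 2) and triangles for sample B (libraries 3 and 4). Libraries of 1 sample lie apart mainly at low levels, as for Cdkn2c, with 21 to 24 reads per sample, and for Cdkn2a in WT sample B, at 2.06 and 1.28 CPM, and Cdkn1c is the gene with the widest gap between the colours.

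The Ink4 genes Cdkn2a and Cdkn2b lie next to each other on chromosome 4, with a single gene model, that of the noncoding RNA Gm12610, listed between them. Cdkn2a has 2 starts: the upstream one gives Arf, which stabilises p53 by binding Mdm2, and the downstream one gives p16, an inhibitor of Cdk4 and Cdk6. Cdkn2b encodes p15, an Ink4 inhibitor that responds to TGF-beta. The 300 bases around these 3 starts are shown because both genes were lowest in WT sample B and highest in KO sample B, and that of Cdkn1b is shown as the start of another inhibitor with both KO samples above WT. They are RefSeq promoters of GRCm38.p6, 250 bases before to 50 after the start, written 5′ to 3′ on the gene's strand. Capitals mark GGGCGG or its reverse complement, the GC box.
Cdkn2a upstream start, chr4:89294570-89294869, minus strand: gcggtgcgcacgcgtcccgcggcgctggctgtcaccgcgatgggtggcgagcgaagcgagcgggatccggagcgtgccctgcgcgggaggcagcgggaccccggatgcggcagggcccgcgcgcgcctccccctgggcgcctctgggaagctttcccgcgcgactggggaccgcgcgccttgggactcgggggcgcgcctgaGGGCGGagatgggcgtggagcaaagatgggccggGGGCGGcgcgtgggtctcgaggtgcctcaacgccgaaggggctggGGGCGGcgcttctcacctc
Cdkn2a downstream start, chr4:89282143-89282442, minus strand: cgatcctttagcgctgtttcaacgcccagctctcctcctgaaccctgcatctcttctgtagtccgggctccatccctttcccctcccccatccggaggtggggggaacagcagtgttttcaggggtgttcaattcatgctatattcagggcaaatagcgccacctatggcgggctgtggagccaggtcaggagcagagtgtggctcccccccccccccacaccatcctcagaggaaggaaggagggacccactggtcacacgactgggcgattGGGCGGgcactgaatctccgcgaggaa
Cdkn2b, chr4:89310983-89311282, minus strand: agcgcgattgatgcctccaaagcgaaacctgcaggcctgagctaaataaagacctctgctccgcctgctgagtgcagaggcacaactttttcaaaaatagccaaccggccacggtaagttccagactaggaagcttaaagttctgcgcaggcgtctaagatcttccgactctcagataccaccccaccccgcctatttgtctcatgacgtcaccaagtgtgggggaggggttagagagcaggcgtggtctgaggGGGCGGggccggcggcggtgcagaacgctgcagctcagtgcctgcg
Cdkn1b, chr6:134920151-134920450, plus strand: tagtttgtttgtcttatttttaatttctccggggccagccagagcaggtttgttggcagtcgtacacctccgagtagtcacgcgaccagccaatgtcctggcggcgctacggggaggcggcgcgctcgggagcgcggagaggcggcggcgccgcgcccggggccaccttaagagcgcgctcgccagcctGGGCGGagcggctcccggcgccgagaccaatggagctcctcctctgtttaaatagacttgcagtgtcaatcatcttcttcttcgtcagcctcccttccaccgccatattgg

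The 4 windows held 3, 1, 1 and 1 GC boxes in that order, and 35.7% of 32851 promoters of this length held at least 1 on either strand. Their G and C content was 77.0%, 60.3%, 57.7% and 62.0%, against a median of 52.7%. The letters GATA, on either strand, and the palindromic CANNTG, of the kinds bound by the GATA and E-box factors that Ldb1 joins, occurred once each in the Cdkn2b window and not in the other 3. Of all promoters, 57.9% held GATA and 72.3% held CANNTG. These are matches of letters and not measured sites.

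Cdkn2a stood at 5.63 and 1.66 CPM (WT A, B) and at 5.10 and 11.1 CPM (KO A, B). The groups overlapped, since KO sample A lay just under WT sample A. The log2 fold change of 1.16 (SE 0.71) moved from 0.53 without WT sample B to 2.28 without WT sample A, and was 0.49 without KO sample B. The counts are per gene, so Arf and p16 transcripts cannot be told apart.

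Cdkn2b stood at 4.31 and 2.42 CPM (WT) and 6.65 and 13.7 CPM (KO), without overlap, a log2 fold change of 1.60 (SE 0.48). It was 0.98 without KO sample B and reached 2.07 without WT sample A. Gm12610 overlaps Cdkn2b in the annotation, and whether strand was used in counting is not given, so the Cdkn2b level is uncertain in that respect. Cdkn2c, the gene of the Ink4 inhibitor p18, was near the lower limit of this depth, at 21 and 23 reads in WT and 22 and 24 in KO, and no difference was detectable at this depth (log2 fold change 0.10, SE 0.36).

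Among the D cyclins, Ccnd3, the one best known from erythroid and lymphoid cells, stood at 157 and 165 CPM (WT) and 152 and 180.1 CPM (KO). Its groups overlapped and its log2 fold change was 0.05 (SE 0.14), or -0.08 without KO sample B. Its model overlaps that of Bysl, which stood at 34.9 to 41.2 CPM. Ccnd1, a common target of growth factor and Wnt signals, stood at 77.0 and 96.3 CPM (WT) and 114 and 112 CPM (KO). Both KO samples lay above both WT samples, and the log2 fold change was 0.38 (SE 0.15), although the Ccnd1 model overlaps that of LTO1. Counts of such overlapping genes are uncertain, as strand use is not stated.

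Ccnd2, a D cyclin that responds to Myc and to cytokine signals, differed more within WT than between genotypes. It stood at 4.87 CPM in WT sample A and 26.1 CPM in WT sample B, and at 15.8 and 23.0 CPM (KO), between the WT samples. A noncoding RNA, 9330179D12Rik, overlaps its model. The log2 fold change of 0.32 (SE 0.83) became -0.44 without WT sample A and 1.999 without WT sample B. Of the Flk1 mesoderm and hemangioblast markers, WT sample B also had the highest levels of Kdr, Etv2, Tal1, Pdgfra, Mesp1, T and Mixl1. Lmo2 went the other way within WT, at 33.0 CPM (A) and 26.1 CPM (B). Mesp1 stood at 0.256 and 18.5 CPM (WT A, B) and 0.778 and 0.117 CPM (KO A, B). T stood at 0.896 and 12.6 CPM (WT A, B) and 7.95 and 1.44 CPM (KO A, B). The part of such cells in the Ccnd2 level was not tested.

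The 9 genes were next compared between the 2 samples of each genotype, where 1 sample stands on each side and intervals cover counting error only. In WT, 5 genes were higher in sample B beyond that interval, 2 were lower and 2 could not be separated, where 27.5% of all genes tested were higher and 28.1% lower by the same interval. In KO, 7 were higher in sample B and 2 could not be separated, where 27.6% of all genes were higher and 19.5% lower. The interval narrows with the number of reads, so abundant genes pass it more often, and nothing particular to the family is read from these shares. The widest of these differences was that of Ccnd2 in WT, a log2 difference of sample B minus sample A of 2.42 (95% exact counting interval 2.13 to 2.72). Cdkn2a went in opposite directions in the 2 genotypes, by -1.76 (-2.29 to -1.26) in WT and 1.12 (0.81 to 1.45) in KO. Cdkn2b did likewise, by -0.84 (-1.31 to -0.37) and 1.05 (0.77 to 1.33). Cdkn1c differed by 0.69 (0.59 to 0.79) in KO and by -0.11 (-0.38 to 0.15) in WT. Over all 16785 genes tested the median size of this difference was 0.243 in WT and 0.205 in KO.

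**Figure D2:**
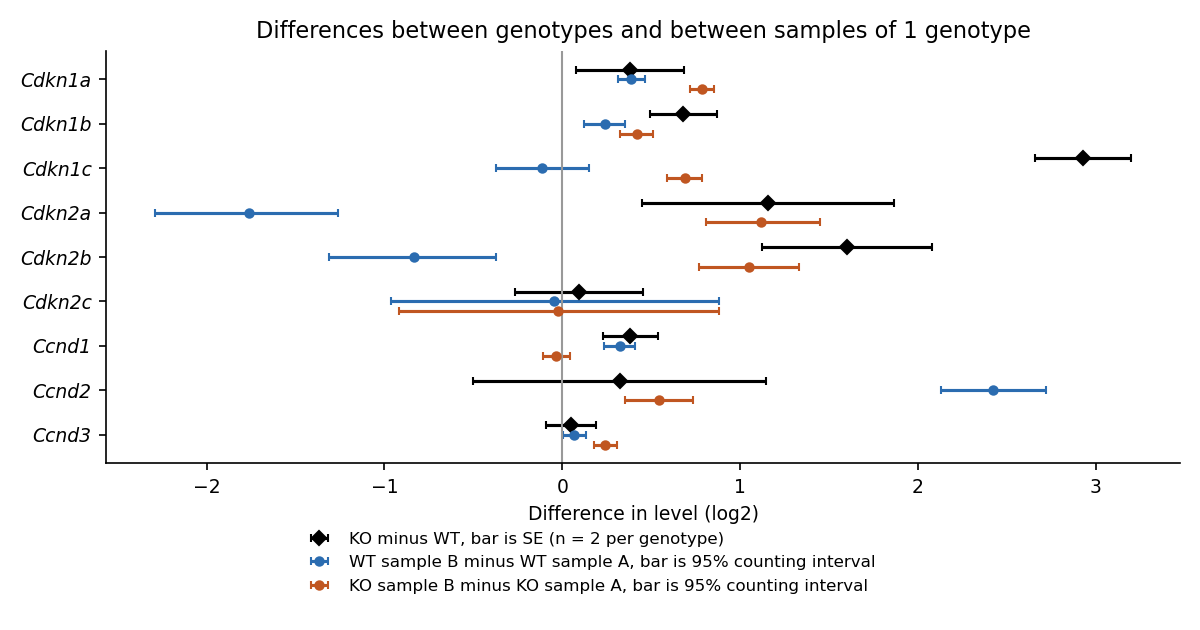
Log2 differences in level for each gene: KO minus WT (black diamonds, bars are SE, n = 2 per genotype), and sample B minus sample A within WT (blue) and within KO (orange), with 95% counting intervals. For Cdkn1c the difference between genotypes, 2.93, is far wider than either difference within a genotype, whereas for Ccnd2 the difference within WT, 2.42, is wider than that between genotypes, 0.32.

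Levels of different genes were compared per kilobase of the deposited transcript length. In WT the order of mean CPM per kilobase was Ccnd3 (84.7 ± 2.80, SD, n = 2), Cdkn1a (61.6 ± 11.7), Ccnd1 (22.8 ± 3.59), Cdkn1b (16.1 ± 1.88), Ccnd2 (12.6 ± 12.2), Cdkn1c (5.34 ± 0.294), Cdkn2a (3.93 ± 3.02), Cdkn2b (2.58 ± 1.03) and Cdkn2c (0.455 ± 0.0103). Neighbours from Cdkn1b down to Cdkn2b had overlapping samples, and the other neighbours did not. In KO, Cdkn1c came next after Ccnd3 and Cdkn1a, at 40.6 ± 13.5 CPM per kilobase. Those stood at 87.5 ± 10.4 and 80.1 ± 30.1, and their samples overlapped. Cdkn1c was followed by Ccnd1 (29.8 ± 0.474) and Cdkn1b (25.8 ± 5.25), which overlapped each other, and by Ccnd2 (15.8 ± 4.17). Cdkn2a, Cdkn2b and Cdkn2c kept the last 3 places at 8.73, 7.83 and 0.487 CPM per kilobase.

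The make-up of the Cip/Kip group therefore differed between genotypes, which is the Cdkn1c difference given as a share. Cdkn1c contributed 7.53% (A) and 5.56% (B) of the summed CPM per kilobase of the 3 Cip/Kip genes in WT, and 27.8% (A) and 27.7% (B) in KO. The share of Cdkn1a was 72.4% and 75.6% in WT and 52.5% and 56.0% in KO, while that of Cdkn1b had a mean of 19.4% in WT and 18.0% in KO. Shares of a group add up to a whole, so a higher Cdkn1c share lowers the others. The Cdkn1a level itself was not lower in KO, with means of 61.6 (WT) and 80.1 (KO) CPM per kilobase and overlapping groups. The Cdkn1c share was close to equal in the KO samples although their levels were not.

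Among the D cyclins, Ccnd3 gave 65.0% to 77.3% and Ccnd1 19.0% to 24.5% of the summed level per kilobase. These shares depend on the deposited lengths: undivided by length, the mean Ccnd1 share was 32.9% (WT) and 38.0% (KO). The remainder per kilobase, from Ccnd2, was 3.71% in WT sample A and at least 10.5% in the other 3. The ratio of summed Cip/Kip to summed D cyclin level was 0.688 and 0.693 in WT and 0.909 and 1.27 in KO. Both KO samples lay above both WT samples in this ratio, and the KO samples differed from each other by more than the WT samples did. The Cip/Kip sum holds Cdkn1c, on whose result the family was selected, so the ratio carries its difference. Cdkn1c alone gave 5.55 and 5.13 CPM per kilobase (WT A, B) and 31.1 and 50.1 (KO A, B). Cdkn1a gave 53.3 and 69.8 (WT A, B) and 58.8 and 101 (KO A, B), so it lay further apart between the KO samples than Cdkn1c did. No test was made of the ratio, and no rise of the inhibitors in general is read from it.

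**Figure D3:**
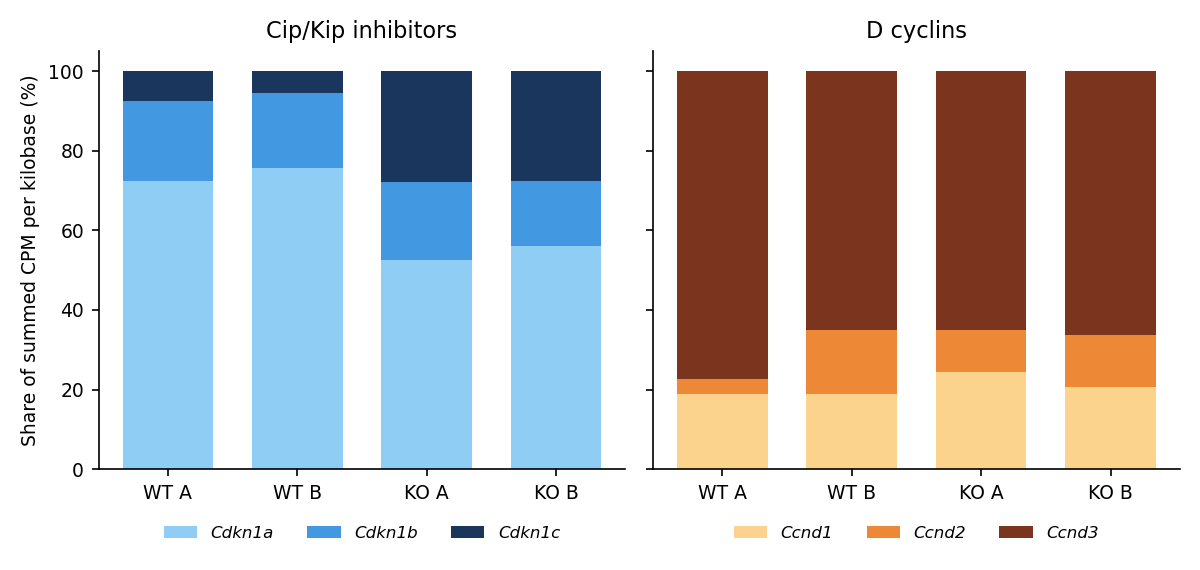
Share of each gene in the summed CPM per kilobase (%) of the Cip/Kip inhibitors (left) and of the D cyclins (right), as stacked bars from 0 to 100% for WT samples A and B and KO samples A and B. The Cdkn1c part is 5.56% to 7.53% in WT and 27.7% to 27.8% in KO, and Ccnd3 is the main D cyclin in all 4 samples.

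Read against the whole table, 9 of 9 measured family genes had a log2 fold change above 0, with a median of 0.38, where 8174 of 16785 genes tested lay above 0 and the median was -0.01. For Cdkn1a, Ccnd2, Ccnd3 and Cdkn2c the sign turned when a sample or library was left out. In 5 of the 9 both KO samples lay above both WT samples, as they did in 23.2% of all genes tested. Those were Cdkn1b, Cdkn1c, Cdkn2b, Ccnd1 and Cdkn2c, the last by less than counting error. DESeq2 called 3 of the 9, Cdkn1b, Cdkn1c and Cdkn2b, where it called 7.54% of the 15483 genes to which it gave an adjusted p-value. The edgeR quasi-likelihood fit called 1 of the 9, Cdkn1c, as higher in KO, where it called 0.185% of all genes and 0.0596% as higher. The family was selected on this comparison, so nothing is read from these counts. The call of Cdkn1c was lost without KO sample A (log2 fold change 3.24) and without KO sample B (2.54).

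The 5 genes whose levels over the 4 samples were most like those of Cdkn1c were then sought among 11927 genes with a mean of at least 5 CPM, by the Euclidean distance between log2 CPM values centred on each gene's mean. They were the collagen gene Col1a2 (distance 0.27), Scube3 (0.34), Mmp23 (0.60), the matrix protein periostin gene Postn (0.70) and the troponin gene Tnni2 (0.74). Col1a2 stood at 77.9 and 76.8 CPM (WT) and 526 and 882 CPM (KO), with the even WT samples and the higher KO sample B for which the search selects. Scube3 stood at 9.22 and 8.34 CPM (WT) and 39.6 and 85.2 CPM (KO). Col1a2 also belongs to the mesenchyme markers given above. The genes were picked by their likeness over these same 4 samples, so it is a description, and no link to a cell type is read from it.

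Genes in the imprinted neighbourhood of Cdkn1c on chromosome 7 were listed to set its difference beside that of its neighbours. Of 14 names, 12 could be tested, and edgeR called none, while 2 higher and 2 lower reached p under 0.05 before adjustment and DESeq2 called 1 higher. Cd81, a tetraspanin gene and the most abundant of them, stood at 210 ± 11.3 CPM (WT) and 308 ± 93.9 CPM (KO; log2 fold change 0.55, SE 0.23, edgeR adjusted p = 0.344). Nap1l4, a histone chaperone gene, had a log2 fold change of 0.06 (SE 0.13). Osbpl5, a lipid transfer protein gene, was the one called by DESeq2 (log2 fold change 1.07, SE 0.30), and Phlda2, an imprinted growth-restraining gene, stood at 7.55 and 26.8 CPM (WT) and 7.17 and 9.21 CPM (KO). The log2 fold changes of the 12 neighbours ranged from -1.98 to 1.35, against 2.93 for Cdkn1c. Both ends came from genes with few reads, Tspan32 at 0.302 to 1.66 CPM and Kcnq1 at 0.302 to 1.29 CPM (both named after their values were seen).

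The partners of the family were taken from 7 further lists, giving with the neighbourhood 112 genes tested. By edgeR with Benjamini-Hochberg adjustment over all genes, 0 of the 112 passed. An unadjusted p under 0.05 was found for 8 higher and 14 lower genes, 19.6% of the lists against 15.5% of all genes. DESeq2 called 2 higher and 9 lower, 9.82% of the 112. It called 7.54% of the 15483 genes to which it gave an adjusted p-value. Kcnq1 and Tspan32 of the lists had none, so the 2 shares have unlike bases. Calls by limma-voom were 0 of the 112, against 0.0179% of all genes. The median log2 fold change of the 112 genes was 0.05.

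Of the CDK and RB-E2F list, all 18 genes were tested and none passed by edgeR or DESeq2, with 3 higher and 0 lower at an unadjusted p under 0.05. Cdk4, the main kinase partner of D cyclins, stood at 214 ± 36.8 CPM (WT) and 284 ± 1.65 CPM (KO; log2 fold change 0.41, SE 0.16, edgeR adjusted p = 0.305). Cdk6, its close relative, stood at 17.2 ± 2.42 and 23.9 ± 2.07 CPM (0.48, SE 0.18, adjusted p = 0.301), and Tfdp1, the dimer partner of E2F factors, at 138 ± 10.8 and 176 ± 5.58 CPM (0.36, SE 0.13, adjusted p = 0.276). Tfdp1 lies on chromosome 8, where the 602 genes with a mean log2 CPM above 3 had a median log2 fold change of 0.25. With that median removed, the log2 fold change of Tfdp1 was 0.11. The log2 fold changes of the 9 other cyclins ranged from -0.15 to 0.35, with none past edgeR, DESeq2 or an unadjusted p under 0.05. Among these the mitotic cyclin genes Ccnb1 and Ccna2 had log2 fold changes of 0.03 (SE 0.13) and -0.05 (SE 0.13), Ccnb2 -0.15 (SE 0.14) and Ccne2, a partner of Cdk2, -0.14 (SE 0.27).

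Of 20 S phase and proliferation genes none passed edgeR, 0 higher and 3 lower reached p under 0.05 before adjustment, and DESeq2 called 2 lower. Top2a, the topoisomerase of dividing cells, stood at 986 ± 73.0 CPM (WT) and 618 ± 10.8 CPM (KO; log2 fold change -0.67, SE 0.13, edgeR adjusted p = 0.110), and Aurkb, a mitotic kinase gene, had a log2 fold change of -0.56 (SE 0.15). Mki67, a marker of cycling cells, stood at 435 and 556 CPM (WT) and 565 and 339 CPM (KO), with overlapping groups. Top2a, Aurkb and Cdc6, the 3 lower genes (Cdc6 is named after its value was seen), all lie on chromosome 11. There, the 904 genes with a mean log2 CPM above 3 had a median log2 fold change of -0.47. With that median removed their log2 fold changes were -0.20, -0.09 and -0.02. No gene of the CDK inhibitor and D cyclin family lies on chromosome 8 or 11.

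Among genes that act on the family, the lower genes also lay mostly on chromosome 11. In the lists as a whole, 10 of the 14 lower genes at an unadjusted p under 0.05 and 8 of the 9 called lower by DESeq2 were on it, and all 15 list genes there lay below 0. Of 13 Polycomb genes tested, whose products silence the Cdkn2a locus, none passed edgeR, 0 higher and 3 lower reached p under 0.05 before adjustment and DESeq2 called 2 lower. Suz12 stood at 421 and 266 CPM (WT) and 181 and 189 CPM (KO), a log2 fold change of -0.89 (SE 0.24). The log2 fold change was -0.95 (SE 0.17) for Ezh1 and 0.03 (SE 0.15) for Ezh2, the main methyltransferase of dividing cells. With the chromosome median removed, the log2 fold change of Suz12 was -0.42 and that of Ezh1 -0.48.

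Of 12 D cyclin inducers tested, none passed edgeR, 0 higher and 5 lower reached p under 0.05 before adjustment, and DESeq2 called the same 5, which were Stat3, Stat5a, Stat5b, Tcf7 and Mycn (Stat5b, Tcf7 and Mycn are named after their values were seen). Stat5a, which relays cytokine signals, stood at 43.2 ± 8.00 CPM (WT) and 17.8 ± 1.34 CPM (KO; log2 fold change -1.28, SE 0.19, edgeR adjusted p = 0.0961), and Stat3 at 182 ± 7.12 and 107 ± 4.28 CPM (-0.77, SE 0.12, adjusted p = 0.105). Apart from Mycn these lie on chromosome 11, and with its median removed the log2 fold changes of Stat5a and Stat3 were -0.80 and -0.29. Ctnnb1, the Wnt effector beta-catenin, had a log2 fold change of 0.24 (SE 0.12), and Fos stood at 24.4 and 94.2 CPM (WT) and 61.6 and 213 CPM (KO), with overlapping groups.

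Of 16 p53 pathway genes, which include companions of Cdkn1a, none passed edgeR or DESeq2, and 1 higher and 1 lower reached p under 0.05 before adjustment. Ccng1 and Trp53inp1, both p53 targets, had log2 fold changes of -0.08 (SE 0.26) and 0.31 (SE 0.18), Gadd45a of 0.77 (SE 0.29) and Plk2 of 0.65 (SE 0.29). For Gadd45a and Plk2, as for Cdkn1a, KO sample B was the highest of the 4, at 40.8 and 194 CPM. KO sample B was also the highest for Ccng1, Trp53inp1, Mdm2, Bax, Bbc3, Btg2, Plk3 and Phlda3. It was not the highest for Trp53, Mdm4, Pmaip1, Sesn1, Sesn2 and Zmat3. Apart from Ccng1 and Trp53inp1, these further genes are named after their values were seen. Nothing is read from this for the list. Of 12 genes of the ubiquitin ligases that degrade inhibitors and D cyclins, none passed edgeR, 2 higher and 0 lower reached p under 0.05 before adjustment, and DESeq2 called 1 higher, the cullin gene Cul4b. It stood at 310 ± 19.7 CPM (WT) and 476 ± 75.0 CPM (KO; log2 fold change 0.62, SE 0.16). The log2 fold change of its relative Cul4a was 0.43 (SE 0.14), or 0.18 with the median of its chromosome 8 removed, and that of their adaptor gene Ddb1 0.31 (SE 0.16).

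**Figure D4:**
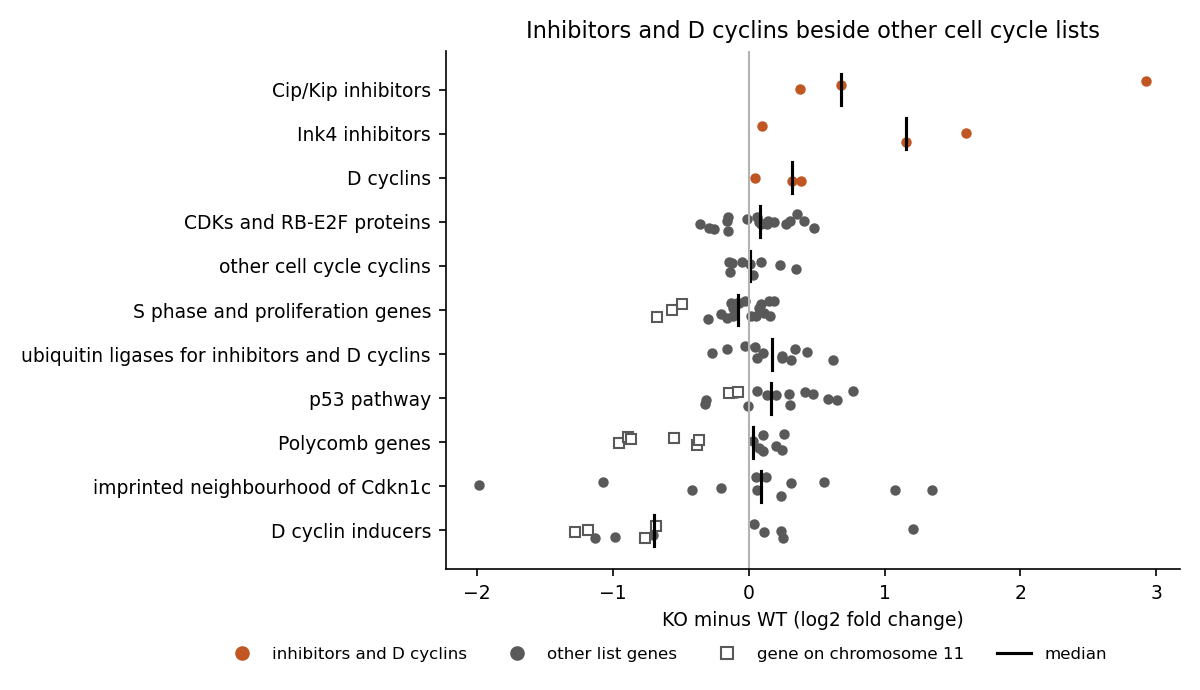
Log2 fold change (KO minus WT) of each tested gene by list, with the CDK inhibitors and D cyclins in orange, other lists in grey, genes on chromosome 11 as open squares and the median of each list as a black bar. Cdkn1c stands alone at 2.93, and all 15 open squares lie below 0.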

How the data were processed

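RNA-seq of Flk1+ WT and KO cells was deposited by the authors as raw read counts per Ensembl gene with a transcript length, per the file headers. The submitters' processing notes name mm9 and DESeq. The sources used here do not name the aligner, counting tool, annotation release or strand setting. The deposited Ldb1 peaks were not used, since no annotation of their build was at hand. Symbols matched 20362 of 21868 genes, and 19332 were placed on a chromosome by a RefSeq table of GRCm38.p6, used for names, chromosomes and neighbours alone. The members and lists were chosen with earlier results of these data known.

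For each pair of libraries a chi-square value was computed for every gene holding 20 or more reads, and sampling noise alone gives a mean of 1. Means were 1.065 to 1.101 for libraries 1 with 2 and 3 with 4, and 12.764 to 28.465 for other pairs within a genotype, so each close pair was summed. Pairs across genotypes gave 30.85 to 45.22. The highest mean within a genotype was between WT samples A and B, which thus lay nearly as far apart as the closest pairs across genotypes. Total counts per library were 11258493 to 13483294. Counts were filtered (filterByExpr), TMM scaled and tested across all genes with the edgeR 4.0.16 quasi-likelihood test (R 4.3.3), and p-values were adjusted over all genes by Benjamini-Hochberg, at 0.05. SE is the log2 fold change divided by the root of its F statistic. DESeq2 1.42.0 and limma 3.58.1 (voom) were alternatives. The script was checked on simulated counts. With 2 samples per genotype, p-values reflect only how these samples vary. Figures were drawn with matplotlib 3.10.9.

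All members were named. Of each other list, the 2 most abundant genes and, as none passed, the 2 with the widest log2 fold change at a mean of at least 5 CPM were named. Genes outside this rule are marked, or are named as overlapping genes, markers or chromosome 11 genes.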

Additional observations from a re-analysis of the deposited data

How the results depend on the processing

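Across all genes edgeR called 31. It called 2 at an adjusted p of 0.01, 151 with no filter on low counts, 5 with a filter of 1 CPM in 2 samples, 5 with a replicate block of samples A and B, and 0 to 1674 when a library or sample was left out (omitting WT A gave 1537, omitting WT B 1674, omitting either KO sample 0, and omitting a single library 22 to 40). DESeq2 called 1168 and limma-voom 3. Fitting 8 libraries separately gave 3860, or 3410 with a replicate block, and counts near-identical libraries as replicates. Of the 112 list genes 0 were called, against 2 with no filter, 11 by DESeq2, 30 with 8 libraries with or without a block, and 0 to 14 with a library or sample left out (14 when WT A was omitted and 9 when WT B was). Same-lettered samples of the genotypes did not deviate together: the correlation over genes of B minus A between genotypes was -0.12. Whether they were paired by culture or run is not stated in the labels. With the crossed replicate block, added after seeing the data, 4 genes were called. Cdkn1c kept its direction in 23 of 23 alternatives (log2 fold change 2.54 to 3.24) and lost its call in 7: limma-voom, the block of samples, the 1 CPM filter, chromosome medians removed, and without KO replicate 2, KO sample A or KO sample B. Cdkn1b (0.45 to 0.88), Cdkn2a (0.49 to 2.28), Cdkn2b (0.98 to 2.07) and Ccnd1 (0.22 to 0.56) also kept their direction in all 23. Without dividing by length the mean Cdkn1c share of the Cip/Kip level was 5.64% in WT and 24.3% in KO, against 6.54% and 27.8%. Likewise undivided, the mean share of Ccnd1 in the D cyclins went from 19.0% to 32.9% (WT) and from 22.6% to 38.0% (KO), that of Ccnd2 from 9.86% to 5.56% and from 11.8% to 6.45%, and that of Ccnd3 from 71.2% to 61.5% and from 65.7% to 55.5%. Cdkn1b went from 19.4% to 28.1% and from 18.0% to 26.4%, and Cdkn1a from 74.0% to 66.3% and from 54.2% to 49.3%. With 1 sample left out, the lone sample is assumed to vary like the other genotype. Within the family depth limits Cdkn2c.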
